A study of Mus musculus with 32 samples.

Results

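In HL-1 cells given conditioned medium (CM) from liver cells, clock genes such as Per2, Per3, Cry1 and Tef were higher than in control medium at 16 h and lower at 28 h, while Arntl went the other way. The genes described here are those whose CM effect, measured as the log2 fold change of CM against control medium, differed between the 2 times. They were chosen by the interaction of medium and time, which is the CM effect at 28 h minus the CM effect at 16 h. Of 14450 genes tested, 40 passed at a Benjamini-Hochberg adjusted p of 0.05 in edgeR's quasi-likelihood test, which is 0.277% of the genes. The interaction was above 0 for 15 of them (0.104% of genes tested) and below 0 for 25 (0.173%). In all, 972 genes had an unadjusted p under 0.05.

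The study used HL-1, a mouse cardiomyocyte line, and AML12, a mouse hepatocyte line. The HL-1 cells received medium from AML12 cultures, either control medium without DEX synchronization or CM with it, and total RNA was taken at 16 h and at 28 h. The labels do not spell out DEX and name no genotype or dose, and the HL-1 cells of all groups share the AML12 origin of their medium. There were 4 groups of 4 libraries, 16 of the 32 libraries of the series. The labels do not state whether the 4 libraries of a group are separate cultures. The p-values therefore reflect only how much these libraries differ, which could be technical.

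Control libraries held 15.7 to 17.4 M (mega) counts at 16 h and 16.0 to 18.1 M at 28 h, and CM libraries 17.9 to 19.3 M and 17.5 to 19.2 M. With all libraries thinned to the lowest total, all 40 genes passed again, among 48. Control replicate 3 at 16 h stood apart from the other controls, at chi-square values over genes of 7.67 to 15.9 for each degree of freedom, against 2.66 to 5.39 among the other 3. Without it 41 genes passed, 36 of the 40 among them. The genes that did not pass then were Adarb1, Cry2, Dnaja2 and Maco1. It was not the only library apart, since CM pairs reached 7.01 at 16 h (replicates 2 and 3) and 9.57 at 28 h (replicates 2 and 4). Without CM replicate 2 at 28 h 55 genes passed, 38 of the 40 among them, and without CM replicate 4 at 28 h 49 and 36. Of 8 genes that define cardiomyocytes, 4 had an average under 1 CPM (counts on the scale of an equal library total). These were the myosins Myh6 and Myh7, the actin Actc1 and the natriuretic peptide Nppa, with 4, 2, 5 and 5 counts over all 16 libraries. They were thus nearly absent and do not bear out the cardiomyocyte name of the line. The 8 genes summed to 903 to 955 CPM in control and 902 to 957 CPM in CM libraries at 16 h, and to 1150 to 1200 and 1090 to 1180 CPM at 28 h. Most of this sum came from Des (524 CPM on average) and Gja1 (466 CPM), with Tnnt2 at 34.5 and Gata4 at 18.1 CPM. It therefore says little about the nearly absent genes, and fibroblast markers such as Vim (6280 CPM on average) were also present (given below).

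The circadian clock of mammalian cells is a loop of transcription factors. ARNTL (BMAL1) and CLOCK bind E-box elements and drive the Per and Cry genes, whose proteins repress them in turn. The nuclear receptors NR1D1 and NR1D2 repress Arntl, and ROR receptors activate it, through ROR elements. DBP, TEF and HLF bind D-box elements and carry the rhythm to output genes, with NFIL3 as a repressor at the same sites. Serum, glucocorticoids and other signals can set the phase of this loop in cultured cells, and the heart and liver both run it.

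Windows around the starts of 4 reversing clock genes are shown because they hold the elements named above. They are RefSeq sequences of build GRCm38.p6, from 250 bases before to 50 after the start, written 5′ to 3′ on the gene's strand. The windows are chr7:113207261-113207560 (plus strand) for Arntl, chr4:151044616-151044915 (minus) for Per3, chr10:85185005-85185304 (minus) for Cry1 and chr15:81811164-81811463 (plus) for Tef. Capitals mark the ROR element AGTAGGTNA in Arntl, the D-box TTATGTAA in Per3 and the E-box CACGTG in Cry1 and Tef.
Arntl: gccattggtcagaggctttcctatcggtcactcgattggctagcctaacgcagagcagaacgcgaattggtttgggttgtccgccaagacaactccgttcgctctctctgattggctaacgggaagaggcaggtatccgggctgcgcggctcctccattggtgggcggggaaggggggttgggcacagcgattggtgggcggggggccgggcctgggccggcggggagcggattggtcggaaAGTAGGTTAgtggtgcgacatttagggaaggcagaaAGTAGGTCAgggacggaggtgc
Per3: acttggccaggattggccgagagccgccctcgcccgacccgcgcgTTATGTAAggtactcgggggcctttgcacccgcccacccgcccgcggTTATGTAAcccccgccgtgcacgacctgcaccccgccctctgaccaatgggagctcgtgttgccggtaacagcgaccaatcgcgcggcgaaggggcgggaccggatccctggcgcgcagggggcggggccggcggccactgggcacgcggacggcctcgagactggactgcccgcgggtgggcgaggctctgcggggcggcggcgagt
Cry1: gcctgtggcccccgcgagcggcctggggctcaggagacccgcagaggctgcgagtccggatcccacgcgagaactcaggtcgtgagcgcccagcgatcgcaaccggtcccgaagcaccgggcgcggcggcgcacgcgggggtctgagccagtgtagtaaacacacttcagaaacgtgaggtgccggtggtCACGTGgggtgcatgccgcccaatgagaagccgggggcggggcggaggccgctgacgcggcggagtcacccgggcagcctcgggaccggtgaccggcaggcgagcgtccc
Tef: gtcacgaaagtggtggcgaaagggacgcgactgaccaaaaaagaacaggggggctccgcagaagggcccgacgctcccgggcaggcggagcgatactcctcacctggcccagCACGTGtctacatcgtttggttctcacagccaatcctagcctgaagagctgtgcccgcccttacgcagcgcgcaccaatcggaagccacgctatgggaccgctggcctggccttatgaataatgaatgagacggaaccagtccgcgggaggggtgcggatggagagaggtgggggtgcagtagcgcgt

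Each motif was searched on both strands, and the motifs were chosen with these results known. The ROR element was found in 0.591% of 32851 RefSeq windows of this length, the D-box in 0.938% and the E-box in 7.15%. Of the 40 genes, 28 had a window. Per2 had none, and the windows of the clock genes Nr1d2, Dbp and Cry2 held no E-box, D-box or ROR element. The E-box was also found in the windows of Coq10b, Pdxk and Ptgs2, and the D-box in that of Coq10b. The NF-kB consensus was found in 6.93% of all windows, and in those of Adarb1, Cry2, Cxcl1, Il1r1 and Thbs2. A match is a description of these letters and not a measured binding site.

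The 40 genes were sorted by the CM effect at each time, called at an adjusted p of 0.05. The effect passed at both times with opposite signs in 12 genes, here called reversed. It passed at 16 h only in 16 genes (lost) and at 28 h only in 8 (gained). In 1 gene, Sema7a, it passed at both times with the same sign and was smaller at 28 h. In 3 genes, Arrb1, Tns1 and Cry2, it passed at neither time although the difference did. For comparison, the CM effect passed in 2.03% of all genes tested at 16 h (294 genes) and in 1.92% at 28 h (278 genes).

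**Figure D1:**
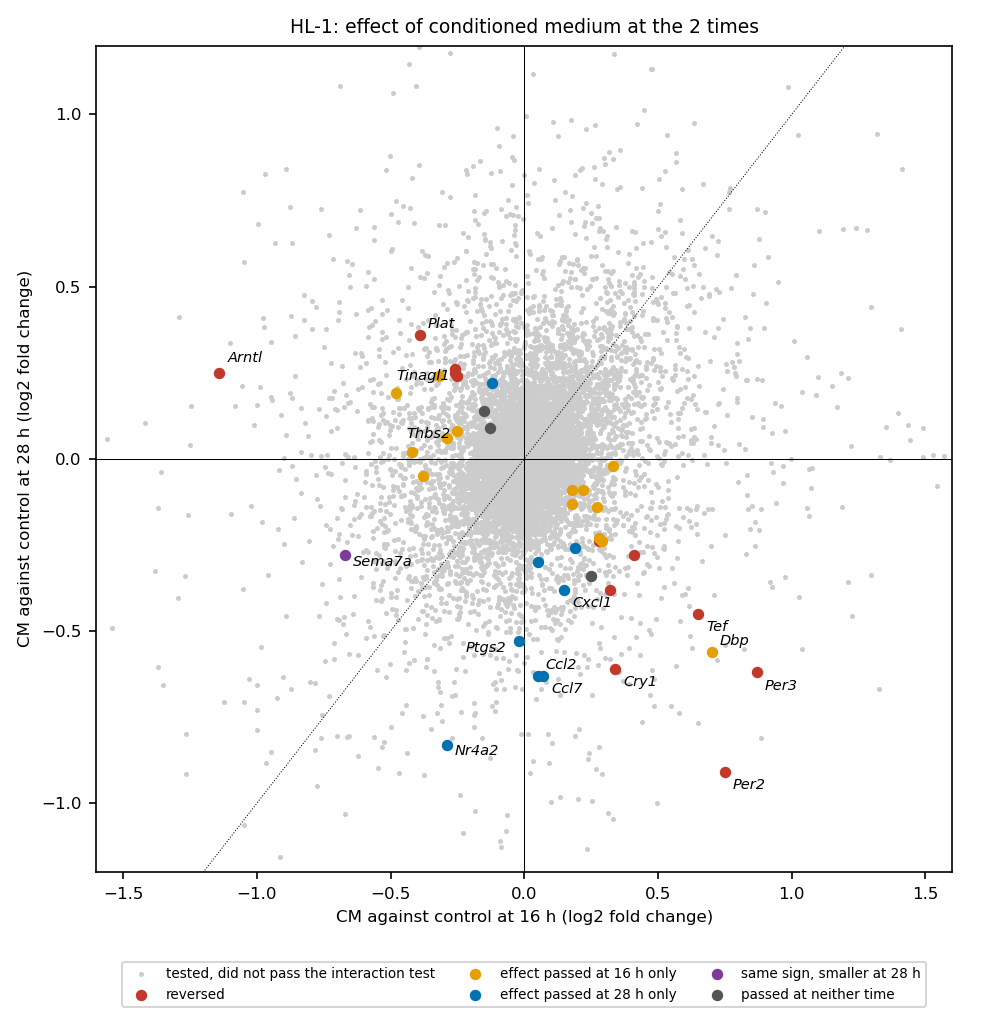
Each point is a gene, placed by its CM effect at 16 h (horizontal axis) and at 28 h (vertical axis), both as log2 fold changes from edgeR, and coloured genes passed the interaction test. The reversed genes sit in the upper left and lower right, away from the dotted line of equal effects. The genes Lcn2 and Serpina3n and 41 genes that did not pass lie outside the axes.

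Most CM effects did not pass a test of difference between the times. Of 465 genes whose effect passed at either time, 37 also passed the interaction test. Of 107 genes that passed at both times, 95 had the same sign and 12 had opposite signs. All 12 of the latter passed the interaction test, against 1 of the 95. Opposite signs make the difference larger than either effect, so this contrast follows largely from the grouping and is no further support. Of 187 genes that passed at 16 h only, 171 did not pass the interaction test, and 151 of those had the same sign at 28 h. Of 171 genes that passed at 28 h only, 163 did not pass the interaction test, and 130 of those had the same sign at 16 h. A gene called at 1 time only was therefore in most cases not shown to differ between the times.

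Among the activators of the clock, Arntl (chr7:113207465-113314126 on GRCm38, plus strand) reversed from lower to higher in CM. At 16 h it stood at 17.0, 17.9, 17.2 and 18.6 CPM in control libraries and at 8.41, 7.90, 7.41 and 8.38 CPM in CM libraries. By 28 h it stood at 42.5, 41.9, 43.3 and 43.2 CPM in control and at 49.2, 50.4, 53.2 and 50.8 CPM in CM. All 4 CM libraries lay below all controls at the first time and above them at the second. The CM effect was −1.14 ± 0.07 (log2, ± SE) at 16 h and 0.25 ± 0.05 at 28 h, and their difference was 1.39 ± 0.08 (edgeR adjusted p = 4.90e-11). All effects, changes over time and differences between effects are on the log2 scale with their SE, and adjusted p-values named edgeR are those of its quasi-likelihood test with Benjamini-Hochberg adjustment. Its partner Clock averaged 176 ± 3.96 and 155 ± 10.6 CPM (mean ± SD, n = 4, as for all averages of a group) in control and CM at 16 h, and 156 ± 3.74 and 156 ± 8.94 CPM at 28 h. The difference for Clock was 0.18 ± 0.06 and did not pass (edgeR adjusted p = 0.479). In bulk RNA such as this, fewer cells that express a gene and less of its RNA per cell cannot be told apart.

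The repressors Per2 and Per3 reversed the other way. Per2 stood at 24.7, 31.5, 29.0 and 30.5 CPM in control and at 45.2, 47.9, 50.9 and 50.3 CPM in CM at 16 h. The later values were 18.8, 21.3, 22.5 and 20.2 CPM in control and 10.4, 11.5, 10.7 and 11.4 CPM in CM. The CM libraries were all above the controls at 16 h and all below them at 28 h. Its CM effect went from 0.75 ± 0.07 to −0.91 ± 0.08, a difference of −1.66 ± 0.11 (edgeR adjusted p = 1.51e-10). Per3 stood at 21.3, 23.0, 21.2 and 23.3 CPM in control and at 40.0, 37.4, 43.2 and 41.4 CPM in CM at 16 h. At 28 h the Per3 values were 23.3, 22.8, 25.4 and 25.2 CPM in control and 13.3, 15.9, 17.3 and 16.2 CPM in CM. Again the 2 media did not overlap at either time. The difference for Per3 was −1.49 ± 0.10 (edgeR adjusted p = 4.18e-10).

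Per1, the family member that also answers fast to signals, did not pass, with a difference of −0.48 ± 0.12 (edgeR adjusted p = 0.150). It stood at 20.0 to 25.2 CPM in control and 27.9 to 34.2 CPM in CM at 16 h, and at 30.7 to 37.7 and 29.1 to 36.4 CPM at 28 h. For Per1 the media were apart at 16 h and overlapped at 28 h. It passed in 3 of 7 other settings of the whole analysis, with adjusted p from 0.000379 to 0.277 over those settings (edgeR's quasi-likelihood test except for DESeq2 and limma-voom).

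The cryptochromes are the partners of the PER proteins. Cry1 stood at 25.4, 27.2, 25.0 and 25.4 CPM in control and 33.2, 33.4, 31.3 and 32.8 CPM in CM at 16 h. Its levels at 28 h were 23.3, 22.7, 21.3 and 18.5 CPM in control and 14.6, 15.7, 13.1 and 12.8 CPM in CM. The media did not overlap at either time, and the CM effect went from 0.34 ± 0.07 to −0.61 ± 0.08. The difference for Cry1 was −0.95 ± 0.10 (edgeR adjusted p = 4.52e-06). Cry2 averaged 12.6 ± 1.06 and 15.0 ± 1.49 CPM in control and CM at 16 h and 14.9 ± 1.07 and 11.8 ± 1.08 CPM at 28 h. Its difference of −0.58 ± 0.13 passed narrowly (edgeR adjusted p = 0.0447), while neither single effect did. Cry2 passed in only 3 of 16 fits that each left out 1 library. Its highest adjusted p in edgeR was 0.168, without CM replicate 4 at 16 h.

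The receptor gene Nr1d2, whose protein represses Arntl, stood at 88.1 to 99.1 CPM in control and 122 to 134 CPM in CM at 16 h. At 28 h it stood at 56.3 to 59.9 and 43.4 to 50.5 CPM. The Nr1d2 effect went from 0.41 ± 0.05 to −0.28 ± 0.05, a difference of −0.69 ± 0.07 (edgeR adjusted p = 1.38e-06). Its paralog Nr1d1 averaged 35.7 ± 2.97 and 39.0 ± 2.35 CPM at 16 h and 30.2 ± 1.97 and 30.3 ± 1.57 CPM at 28 h, and its difference of −0.13 ± 0.09 did not pass (edgeR adjusted p = 0.885). Whether Nr1d1 and Nr1d2 differ from each other was not tested. Of the ROR receptors, Rorb stayed near 27 CPM in every group on average, with a difference of −0.03 ± 0.10. Rora did not pass either, at group means under 4 CPM.

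Among the output factors, Tef had the smallest adjusted p of all genes. It stood at 115, 122, 115 and 119 CPM in control and 182, 184, 186 and 188 CPM in CM at 16 h. By 28 h it stood at 85.0, 80.0, 87.9 and 87.7 CPM in control and 63.9, 63.7, 59.2 and 61.8 CPM in CM. The Tef libraries of the 2 media were far apart at both times, in opposite order. Its CM effect went from 0.65 ± 0.04 to −0.45 ± 0.04, a difference of −1.11 ± 0.06 (edgeR adjusted p = 1.66e-12). Dbp stood at 9.50, 14.3, 13.4 and 15.0 CPM in control and 17.4, 26.5, 17.5 and 23.1 CPM in CM at 16 h. The later values were 9.05, 8.39, 8.94 and 9.45 CPM in control and 5.70, 5.66, 4.82 and 8.14 CPM in CM. Its libraries did not overlap at either time, but the spread was wider. The difference for Dbp was −1.25 ± 0.22 (edgeR adjusted p = 0.00399). Its effect of −0.56 ± 0.17 at 28 h did not pass (edgeR adjusted p = 0.102), which places it among the lost genes.

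**Figure D2:**
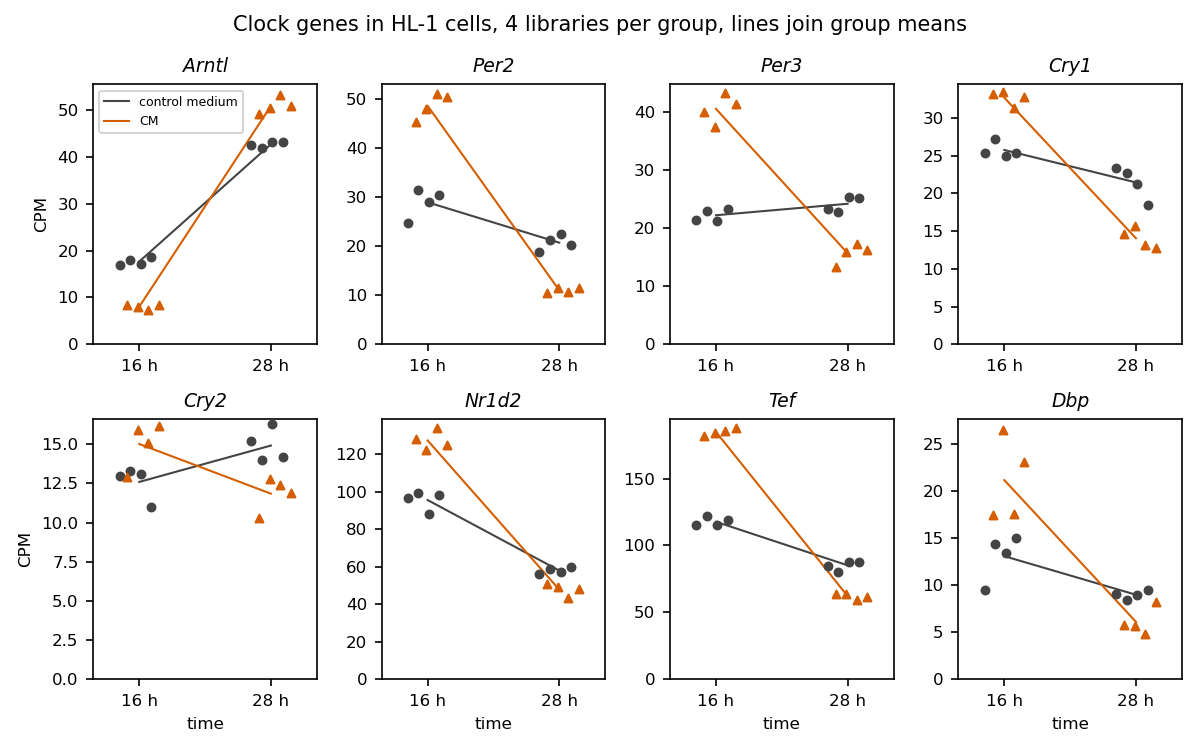
Levels in CPM (vertical axes, from 0) of 8 clock genes that passed the interaction test, at 16 h and 28 h. Each circle is a control library, each triangle a CM library, and lines join the means of 4 libraries. The lines cross in every panel, upward in CM for Arntl and downward for the others, and in Cry2 the libraries overlap at 16 h.

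Over the whole of the clock lists, 1 of 14 core genes tested passed above 0 and 5 passed below 0, with a median difference of −0.53 against −0.01 over all genes tested. Of 6 output factors tested, 2 passed, both below 0, with a median of −0.70. The other members did not pass. Bhlhe41, a repressor of the loop, lay just outside the threshold at −0.44 ± 0.10 (edgeR adjusted p = 0.0519). It stood at 24.0 to 28.8 CPM in control and 30.8 to 34.5 CPM in CM at 16 h, and at 42.5 to 54.4 and 41.6 to 45.1 CPM at 28 h. Bhlhe40 had −0.20 ± 0.07, Nfil3 0.24 ± 0.09, Ciart −0.62 ± 0.17, Hlf −0.97 ± 0.49 and Npas2 1.56 ± 0.65, the last 2 at low levels. Beside Bhlhe41, the genes just outside the threshold were Cbx7 (0.46) and Nfat5 (0.31), both at an adjusted p of 0.0519. Those just inside were Syt13 (0.0311), Cry2 (0.0447) and Tns1 (0.0481).

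The changes over time in each medium show how the reversal came about arithmetically, since the interaction is also the change from 16 h to 28 h in CM minus that in control. In 11 of the 12 reversed genes the change had the same direction in both media and was larger in CM. Arntl rose by 1.28 ± 0.06 in control and by 2.66 ± 0.06 in CM. Per2 fell by 0.48 in control and by 2.14 in CM, Tef by 0.47 and 1.57, and Cry1 by 0.27 and 1.22. Per3 was the exception, with 0.12 ± 0.07 in control (edgeR adjusted p = 0.140) and −1.37 ± 0.07 in CM. A change over time was common in HL-1 cells, passing in 62.8% of all genes tested in control and 65.4% in CM. Among the 40 genes, the change passed in both media with the same sign in 29, in both with opposite signs in 3, in control only in 4 and in CM only in 4. It was larger in CM in 22, smaller in CM in 11 and opposite in 7. The shares of these patterns over all genes tested were not counted, and a choice by the interaction itself shapes them. With only 2 times, a change in level, amplitude or phase of a rhythm cannot be told apart.

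The other reversed genes fell into 2 sets. Wee1, which encodes a kinase that delays entry into mitosis and is a known clock target, and Coq10b, which serves coenzyme Q in mitochondria, moved with the repressors. Wee1 averaged 61.3 ± 3.27 and 74.4 ± 4.70 CPM in control and CM at 16 h and 40.2 ± 2.79 and 34.1 ± 2.23 CPM at 28 h, a difference of −0.52 ± 0.08 (edgeR adjusted p = 0.00205). Coq10b averaged 25.6 ± 1.93 and 32.0 ± 2.07 CPM, then 19.1 ± 0.985 and 14.7 ± 1.24 CPM, a difference of −0.70 ± 0.10 (edgeR adjusted p = 0.000502). The media did not overlap at either time in both genes.

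The set that moved with Arntl held secreted and signalling genes. Plat and Plau encode the tissue and urokinase plasminogen activators, proteases that start fibrinolysis and matrix breakdown. Plat stood at 17.2, 17.8, 17.9 and 18.7 CPM in control and 12.6, 13.7, 14.4 and 13.7 CPM in CM at 16 h. Its levels at 28 h were 53.3, 58.3, 58.2 and 65.7 CPM in control and 73.6, 72.2, 83.1 and 74.0 CPM in CM. The CM libraries thus went from all below to all above the controls. The Plat effect went from −0.39 ± 0.08 to 0.36 ± 0.06, a difference of 0.76 ± 0.10 (edgeR adjusted p = 6.13e-05). Plau stood at 54.9, 53.2, 51.7 and 52.7 CPM in control and 45.6, 43.1, 46.7 and 42.2 CPM in CM at 16 h. At 28 h it stood at 54.7, 62.5, 57.8 and 61.4 CPM in control and 73.3, 66.5, 73.6 and 67.0 CPM in CM. Its order reversed in the same way, with a difference of 0.50 ± 0.07 (edgeR adjusted p = 0.00044). Spon2, a secreted matrix protein, averaged 16.4 ± 0.659 and 13.7 ± 1.30 CPM at 16 h and 53.3 ± 1.67 and 63.7 ± 2.17 CPM at 28 h, a difference of 0.52 ± 0.09. Fgd3, an exchange factor for the GTPase CDC42, averaged 48.5 ± 2.31 and 40.9 ± 1.26 CPM, then 58.0 ± 3.13 and 68.5 ± 2.41 CPM, a difference of 0.49 ± 0.07. Both passed in edgeR (adjusted p = 0.00221 for Spon2 and 0.00044 for Fgd3) and had no overlap of the media at either time.

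Of the 8 genes that gained a CM effect, 7 were lower in CM at 28 h, and 4 of these are inflammatory genes. Chemokines such as CCL2, CCL7 and CXCL1 draw monocytes and neutrophils to a tissue, and Ptgs2 encodes the inducible cyclooxygenase COX-2 of prostaglandin synthesis. Of 19 tested genes in the list of chemokines and NF-kB targets, these 4 passed below 0 and none above, with a list median of −0.24 against −0.01 over all genes tested.

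Ccl2 stood at 94.0, 80.5, 98.7 and 80.4 CPM in control and 90.8, 90.3, 86.0 and 98.8 CPM in CM at 16 h. By 28 h it stood at 155, 150, 138 and 147 CPM in control and 101, 113, 80.9 and 84.7 CPM in CM. The media overlapped at 16 h and were apart at 28 h, where the control level had risen by 0.74 ± 0.08 and the change in CM, 0.05 ± 0.08, did not pass. The CM effect on Ccl2 was 0.05 ± 0.08 at 16 h and −0.63 ± 0.08 at 28 h, a difference of −0.68 ± 0.11 (edgeR adjusted p = 0.00204). Ccl7 stood at 95.2, 89.4, 98.0 and 83.3 CPM in control and 98.7, 103, 88.0 and 95.4 CPM in CM at 16 h. The later values were 104, 94.9, 89.9 and 88.1 CPM in control and 66.2, 70.0, 47.6 and 60.0 CPM in CM. Here the control level did not pass a change over time, at 0.04 ± 0.08, and the CM level fell by 0.66. The difference for Ccl7 was −0.70 ± 0.11 (edgeR adjusted p = 0.00191). The starts of Ccl2 and Ccl7 lie 10141 bp apart on chromosome 11 (chr11:82035571-82037453 and chr11:82045712-82047525 on GRCm38), so the pair shares a locus.

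Cxcl1 stood at 97.6, 98.8, 119 and 91.3 CPM in control and 111, 119, 107 and 114 CPM in CM at 16 h. Its levels at 28 h were 343, 351, 329 and 348 CPM in control and 259, 267, 256 and 267 CPM in CM. Its level rose over time in both media, and by less in CM (1.22 ± 0.05 against 1.75 ± 0.05). The difference for Cxcl1 was −0.53 ± 0.08 (edgeR adjusted p = 0.000303). Ptgs2 averaged 143 ± 10.5 and 142 ± 3.72 CPM in control and CM at 16 h and 233 ± 11.4 and 161 ± 8.08 CPM at 28 h, a difference of −0.52 ± 0.07 (edgeR adjusted p = 0.000109). For Ptgs2 the media overlapped at 16 h and all CM libraries were below the controls at 28 h.

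Other genes of that list had an effect that passed at 28 h, while the difference between the times did not pass. Cxcl5 had a CM effect of −0.38 ± 0.06 at 28 h (edgeR adjusted p = 0.000329) and a difference of −0.24 ± 0.09 (edgeR adjusted p = 0.488). For the cytokine Il6 these were −0.81 ± 0.13 (edgeR adjusted p = 0.000585) and −0.54 ± 0.26 (edgeR adjusted p = 0.744). For the adhesion molecule Vcam1 they were −0.34 ± 0.05 (edgeR adjusted p = 0.000363) and −0.17 ± 0.07 (edgeR adjusted p = 0.619). The inhibitor gene Nfkbia had a difference of −0.44 ± 0.10, which did not pass (edgeR adjusted p = 0.0756).

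Of 10 immune cell markers, 2 were at 0 counts and 8 in all were under 1 CPM, with Ptprc (CD45) at 3 counts over all 16 libraries. Their summed level, mostly Cd14, was 24.7 to 26.6 CPM in control and 20.2 to 25.6 CPM in CM at 16 h. At 28 h it was 39.5 to 41.6 and 30.3 to 33.6 CPM. This sum was lower in CM at 28 h, as the chemokines were, and its part in that result was not tested.

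The remaining gained genes have other roles. Nr4a2, an immediate early nuclear receptor, stood at 16.0 to 19.0 CPM in control and 13.3 to 15.0 CPM in CM at 16 h, and at 24.7 to 26.8 and 12.4 to 16.4 CPM at 28 h. Its control level rose by 0.55 ± 0.08, while the CM level had 0.00 ± 0.08. The CM effect was −0.29 ± 0.08 at 16 h, just short of passing (edgeR adjusted p = 0.0643), and −0.83 ± 0.08 at 28 h. All CM libraries already lay below the controls at 16 h, so its place among the gained genes depends on the threshold. The difference for Nr4a2 was −0.55 ± 0.11 (edgeR adjusted p = 0.0215). It was the only one of 29 tested immediate early genes to pass, and the list median was −0.04. Rdh10, a retinol dehydrogenase of retinoic acid synthesis, averaged 53.6 ± 0.576 and 55.4 ± 2.95 CPM at 16 h and 85.6 ± 3.44 and 69.7 ± 1.74 CPM at 28 h, a difference of −0.34 ± 0.06. Adarb1, an RNA editing enzyme, averaged 21.5 ± 0.967 and 24.6 ± 1.38 CPM, then 24.9 ± 1.21 and 20.9 ± 0.731 CPM, a difference of −0.45 ± 0.09. Both passed (edgeR adjusted p = 0.00769 for Rdh10 and 0.0141 for Adarb1). For Adarb1 the media were apart at both times in opposite order, but the effect of 0.19 ± 0.06 at 16 h did not pass (edgeR adjusted p = 0.139).

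Lox, the lysyl oxidase that cross-links collagen and elastin, was the 1 gained gene that was higher in CM. It stood at 592, 576, 603 and 563 CPM in control and 535, 546, 534 and 540 CPM in CM at 16 h. At 28 h it stood at 1610, 1740, 1730 and 1700 CPM in control and 1980, 1890, 2050 and 1980 CPM in CM. The media were apart at both times in opposite order, but the effect of −0.12 ± 0.03 at 16 h did not pass (edgeR adjusted p = 0.101). The Lox effect at 28 h was 0.22 ± 0.03, and the difference 0.33 ± 0.05 (edgeR adjusted p = 0.00044).

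**Figure D3:**
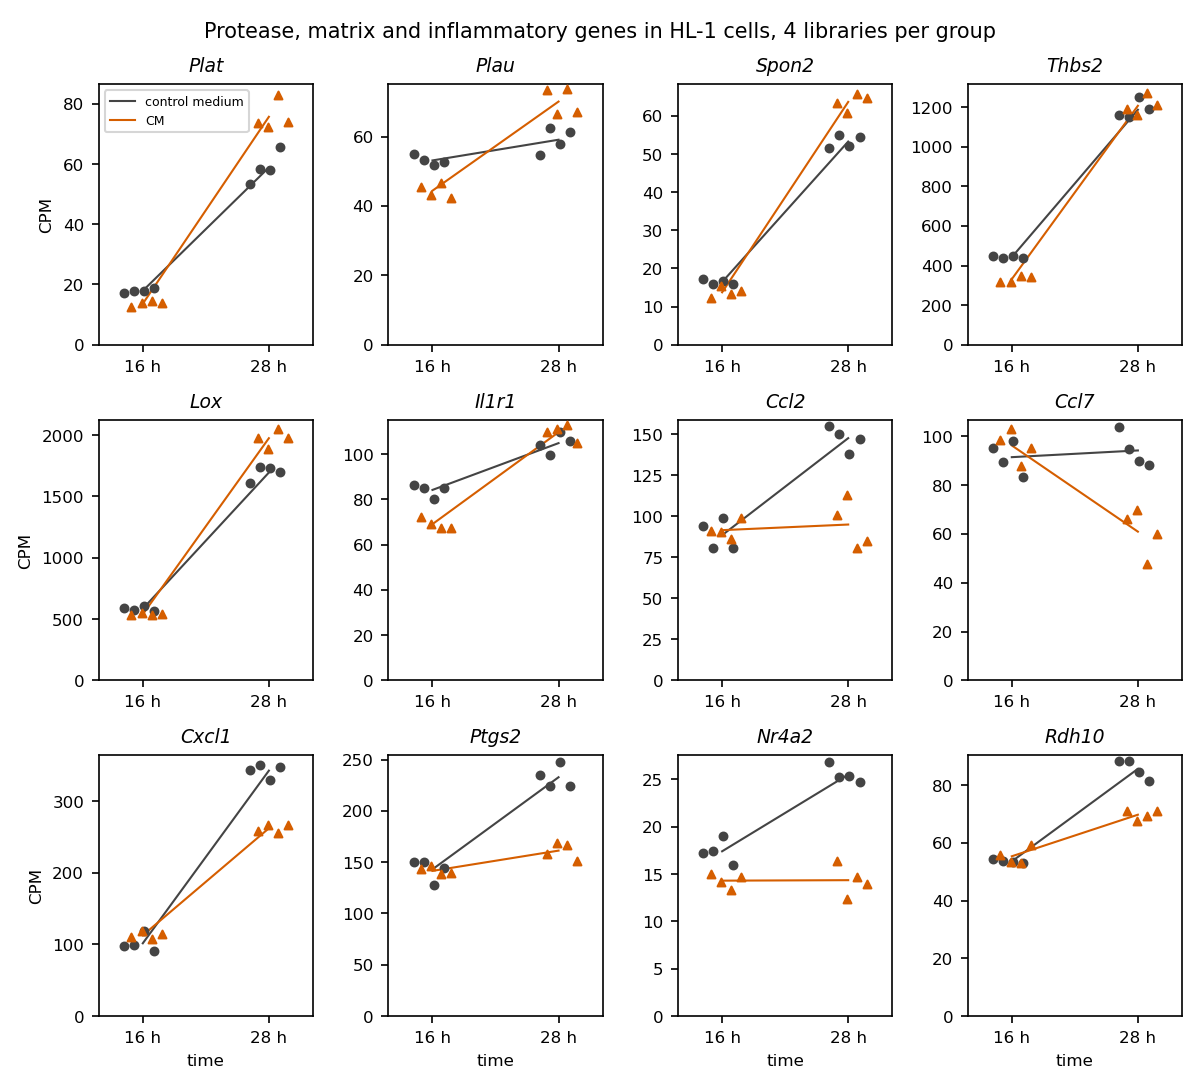
Levels in CPM (vertical axes, from 0) of 12 genes of the protease, matrix and inflammatory groups at 16 h and 28 h, with circles for control libraries, triangles for CM libraries and lines through the means of 4. The lines cross with the media apart at both times for Plat, Plau, Spon2 and Lox. The libraries overlap at 16 h and part by 28 h for Ccl2, Ccl7, Cxcl1, Ptgs2 and Rdh10. They start apart and overlap at 28 h for Thbs2 and Il1r1, and part further for Nr4a2. The means also cross for Ccl2, Ccl7, Cxcl1, Rdh10, Thbs2 and Il1r1.

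Among the 16 genes that lost the CM effect, 6 were lower in CM at 16 h. Thbs2, a matricellular thrombospondin, stood at 448, 436, 446 and 438 CPM in control and 319, 318, 346 and 342 CPM in CM. At 28 h Thbs2 stood at 1160, 1150, 1250 and 1190 CPM in control and 1190, 1160, 1270 and 1210 CPM in CM. The media were apart at 16 h and overlapped at 28 h. The CM effect went from −0.42 ± 0.04 to 0.02 ± 0.04, a difference of 0.43 ± 0.05 (edgeR adjusted p = 4.01e-05). Thbs2 and Lox were the 2 genes that passed of 29 tested in the matrix list, both above 0, with a list median of 0.06. Fibroblast markers summed to 7690 to 8960 CPM in control and 7890 to 8590 CPM in CM at 16 h and to 9560 to 10100 and 8980 to 10100 CPM at 28 h, so the media overlapped at both times. Of these 13 markers, 7 averaged at least 10 CPM, with Vim at 6280, Col3a1 at 1460, Col1a2 at 844 and Col1a1 at 175 CPM, 3 lay under 1 CPM and Tcf21 was at 0 counts. The 8 smooth muscle markers summed to 803 to 912 CPM in control and 978 to 1080 CPM in CM at 16 h and to 955 to 1060 and 1070 to 1200 CPM at 28 h. This sum was higher in CM without overlap at both times, and its part in the results was not tested. Most of it came from Des (524 CPM on average), Acta2 (356 CPM) and Smtn (105 CPM), while Myh11, Tagln and Cnn1 lay under 1 CPM. Des is also among the genes of the cardiomyocyte sum, so this sum does not establish a smooth muscle component.

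Il1r1, the receptor for interleukin 1, stood at 80.1 to 86.6 CPM in control and 67.5 to 72.3 CPM in CM at 16 h, and at 99.7 to 110 and 105 to 113 CPM at 28 h. Its difference was 0.35 ± 0.06 (edgeR adjusted p = 0.00252), and it was the only one of 36 growth factor, cytokine and receptor genes tested to pass. Hmga2, an architectural chromatin protein of proliferating cells, averaged 231 ± 12.5 and 178 ± 6.83 CPM at 16 h and 154 ± 0.977 and 148 ± 7.65 CPM at 28 h, a difference of 0.32 ± 0.06 (edgeR adjusted p = 0.00736). Tinagl1, a secreted matrix-associated protein, averaged 42.5 ± 6.00 and 30.5 ± 4.22 CPM, then 37.2 ± 1.75 and 42.4 ± 4.51 CPM, a difference of 0.66 ± 0.13 (edgeR adjusted p = 0.0178). It was the 1 gene of the 40 whose media overlapped at both times, and control replicate 1 at 16 h lay at 33.6 CPM against 44.9 to 46.3 CPM in the others. Syt13 (0.32 ± 0.07) and Dusp27 (0.56 ± 0.12) completed this set. Each of those 2 missed the threshold in 7 of the 16 fits that left out a library, with edgeR adjusted p up to 0.103 for Syt13 (without control replicate 4 at 16 h) and 0.0753 for Dusp27 (without control replicate 3 at 28 h).

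The other 10 lost genes, Dbp among them, were higher in CM at 16 h. Lcn2 and Serpina3n encode lipocalin 2 and a serine protease inhibitor, both secreted acute phase proteins. They were scarce, below the 5 CPM set for named genes, and were named after their values were seen. Lcn2 stood at 0.228, 0.00, 0.452 and 0.125 CPM in control and 0.981, 2.23, 2.29 and 2.08 CPM in CM at 16 h. By 28 h it stood at 1.35, 1.50, 1.33 and 1.32 CPM in control and 1.42, 1.41, 1.40 and 2.10 CPM in CM. Over 4 libraries these are 13 and 140 counts at 16 h and 91 and 116 counts at 28 h. The CM libraries were all above the controls at 16 h and overlapped them at 28 h, where the control level had risen. The difference for Lcn2 was −2.99 ± 0.53 (edgeR adjusted p = 0.00464), and a fitted change from so few counts depends on the prior count.

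Serpina3n gave 15 and 122 counts at 16 h and 116 and 181 counts at 28 h in control and CM, with means of 0.234 ± 0.176 and 1.64 ± 0.193 CPM and then 1.75 ± 0.350 and 2.49 ± 0.308 CPM. Its difference was −2.29 ± 0.42 (edgeR adjusted p = 0.00728). All CM libraries lay above the controls at both times, while the effect of 0.50 ± 0.21 at 28 h did not pass (edgeR adjusted p = 0.315). Serpina3n belongs to a cluster of near-identical paralogs, between which the counting could split reads, so these values are uncertain. DESeq2 gave no adjusted p for either gene. Lcn2 and Cry2 were the 2 genes that passed of 20 tested in the glucocorticoid responsive list, both below 0, where the median was −0.11. Fkbp5, a glucocorticoid target of that list, had a CM effect of 0.34 at 16 h and 0.26 at 28 h, a difference of −0.08 ± 0.07 that did not pass (edgeR adjusted p = 0.913).

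Pdxk, the kinase that makes active vitamin B6 and a known target of DBP and TEF, averaged 30.3 ± 1.18 and 36.8 ± 2.85 CPM at 16 h and 17.1 ± 1.58 and 14.6 ± 0.337 CPM at 28 h. Its difference was −0.51 ± 0.10 (edgeR adjusted p = 0.0131), and the media did not overlap at either time. Slc1a3, a glutamate transporter, averaged 29.0 ± 2.28 and 35.5 ± 1.95 CPM, then 23.1 ± 2.10 and 19.7 ± 1.47 CPM, a difference of −0.53 ± 0.10 (edgeR adjusted p = 0.0142). Fam76a had −0.42 ± 0.07, Maco1 −0.35 ± 0.07, the co-chaperone Dnaja2 −0.31 ± 0.06, the secreted Angptl2 −0.30 ± 0.06 and the epoxide hydrolase Ephx1 −0.26 ± 0.05. Ephx1 stood at 256 to 272 CPM in control and 295 to 305 CPM in CM at 16 h, and at 348 to 366 and 332 to 341 CPM at 28 h. Its order turned with no overlap, while the effect of −0.09 ± 0.03 at 28 h did not pass (edgeR adjusted p = 0.213). The order also turned with no overlap for Fam76a and Dusp27, whose effects at 28 h did not pass (edgeR adjusted p = 0.203 and 0.148).

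Sema7a, a membrane-bound semaphorin, was lower in CM at both times. It stood at 77.5, 89.4, 91.2 and 82.8 CPM in control and 50.5, 59.2, 51.0 and 54.1 CPM in CM at 16 h. The later values were 73.4, 78.6, 81.7 and 75.8 CPM in control and 62.1, 61.2, 64.2 and 66.8 CPM in CM. The gap between the media narrowed without closing, from −0.67 ± 0.06 to −0.28 ± 0.06, a difference of 0.38 ± 0.08 (edgeR adjusted p = 0.026). Arrb1, a beta-arrestin of receptor signalling, averaged 77.1 ± 3.15 and 69.6 ± 3.00 CPM at 16 h and 216 ± 6.19 and 238 ± 12.1 CPM at 28 h, a difference of 0.29 ± 0.06 (edgeR adjusted p = 0.0291). Tns1, a tensin of focal adhesions, averaged 352 ± 11.7 and 322 ± 4.29 CPM, then 380 ± 9.20 and 406 ± 15.3 CPM, a difference of 0.22 ± 0.05 (edgeR adjusted p = 0.0481). For Tns1 the adjusted p in edgeR reached 0.137 without control replicate 4 at 28 h.

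**Figure D4:**
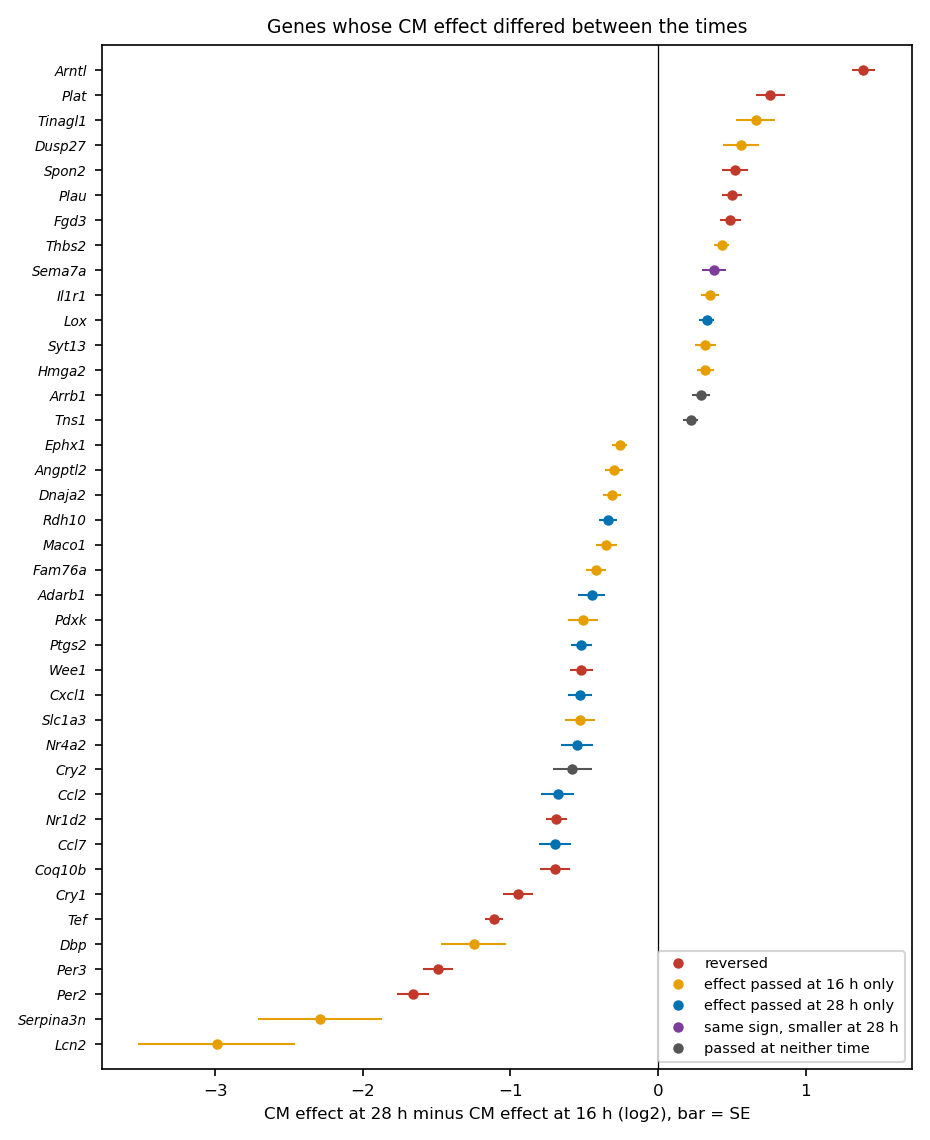
The difference of the CM effect between the times (28 h minus 16 h, log2, horizontal axis) for each of the 40 genes, with bars of 1 SE from edgeR. Arntl lies farthest to the right at 1.39, and Lcn2 and Serpina3n farthest to the left at −2.99 and −2.29 with the widest bars. Colours give the class of each gene.

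Several calls were marginal, and were lost in fits of fewer libraries while the difference moved little. Cry2 and Tns1 missed it in 13 and 11 of the 16 fits that left out 1 library, and Dnaja2, Nr4a2 and Slc1a3 in 6 each. Over those fits the difference ranged from −0.63 to −0.52 for Cry2, from 0.20 to 0.26 for Tns1, from −0.36 to −0.26 for Dnaja2, from −0.62 to −0.48 for Nr4a2 and from −0.58 to −0.45 for Slc1a3. The highest adjusted p in edgeR was 0.095 for Dnaja2 and 0.0888 for Nr4a2, both without CM replicate 4 at 16 h, and 0.0667 for Slc1a3 without control replicate 2 at 16 h. Arrb1 and Pdxk missed it in 5 fits each, with up to 0.0911 (without CM replicate 1 at 28 h) and 0.0571 (without control replicate 2 at 16 h). Sema7a missed it in 4, with up to 0.09 (without control replicate 1 at 28 h). Adarb1 and Maco1 missed it in 3 each, with up to 0.0633 (without CM replicate 2 at 16 h) and 0.059 (without CM replicate 1 at 16 h). Angptl2 and Tinagl1 missed it in 2 each, with up to 0.0781 (without CM replicate 4 at 16 h) and 0.0607 (without control replicate 1 at 28 h), and Rdh10 in 1, with 0.0537 (without CM replicate 4 at 16 h). All 12 reversed genes passed the interaction test in each of the 16 fits, but the reversed class, which also needs both single effects to pass, held 9 to 13 genes over them, with 9 without CM replicate 4 at 16 h.

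The classes were set by tests on these same libraries, so overlap of the media describes them and is no further support. In all 12 reversed genes the media did not overlap at either time. Among lost genes the media were apart at 16 h in 15 of 16 and at 28 h in 6, and among gained genes at 16 h in 3 of 8 and at 28 h in all 8. Over all 40 they were apart at 16 h in 33, at 28 h in 30 and at both in 24, and the signs of the 2 effects differed in 34. The shares over all genes tested were not counted, and a choice by the interaction favours both separate media and opposite signs. The size of the difference ranged from 0.22 to 2.99 on the log2 scale with a median of 0.52, and 7 genes reached 2-fold. All 40 are protein coding and lie on 15 chromosomes. Beside Ccl2 and Ccl7, 2 pairs had starts within 1000000 bp, Syt13 with Cry2 and Angptl2 with Lcn2, both on chromosome 2.

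Of the 40 genes, 17 were in at least 1 of the gene lists and 23 in none, and 7 lists held a member. The other lists had none that passed. In the S phase list 0 of 32 tested genes passed, with a median of −0.18 and all 32 differences below 0, and in the list of G2 and mitosis 0 of 32 passed, with a median of 0.07 and 31 above 0. Over all genes tested, 6449 of 14450 differences were above 0. Of 28 genes in the cardiac sarcomere list only 13 were tested, and 0 of these passed (median −0.06). Of 28 in the list of heart channels, gap junctions and calcium handling 15 were tested, and 0 passed (median −0.06). The other genes of these lists could not be assessed. The cholesterol list had 0 of 26 and a median of −0.03, and the stress response list (unfolded protein and integrated) 0 of 30 and a median of 0.00.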

How the data were processed

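The data are a table of read counts per gene for 16 HL-1 libraries. The deposited counts are whole numbers that the authors did not normalize, as their differing totals show. Reads were handled with FastQC 0.11.8 and STAR on mm10 (GRCm38), per the submitters' processing notes. RNA was taken with TRIzol and libraries made with NEBNext Ultra II reagents, per the labels' protocols. How reads were counted, with which strand setting and on which gene models, is not given in the sources used here. Overlapping and antisense genes may therefore share reads. The columns named DEX are the CM libraries, as the labels' descriptions and titles tie them.

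Of 55414 gene IDs, 23808 had no count, and 14450 were kept by edgeR's filterByExpr by group. Counts were scaled by TMM (factors 0.986 to 1.01) and fitted with 1 mean per group over all 16 libraries (edgeR 4.0.16, R 4.3.3). Contrasts were tested with the quasi-likelihood test, and p-values adjusted by Benjamini-Hochberg over all 14450 genes at 0.05. The SE is the log2 change divided by the root of F. Levels are CPM on TMM-scaled totals, given as values per library, as ranges or as means of 4. CPM are not scaled by gene length, so levels were not compared between genes. The method was also tested on simulated data.

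The members, gene lists and motifs were chosen with earlier results of these data known. The rule for named genes took, per class and direction, the 6 largest differences (8 in the reversed class) with at least 5 CPM in a group, all clock genes and up to 3 called genes per other list. The text also gives the other called genes and a few list genes, picked after their values were seen. Alternatives were DESeq2 1.42.0, limma-voom (limma 3.58.1), no filter on low counts, scaling by RLE or by totals alone, the replicate number as a block, thinning, other call thresholds and leaving out each library. Positions come from GENCODE M21 on GRCm38, matched by ID for 99.7% of the genes tested. The AML12 libraries were not used here. The values of 1 listed gene are not reported here, while list counts and medians include it.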

Additional observations from a re-analysis of the deposited data

Results flagged for a closer look

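The CM effect differed between 16 h and 28 h in 40 genes, by the interaction test of edgeR given above.

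In 160 groups of 4 libraries (the 40 genes in each of 4 groups), 11 had 1 library farther from the other 3 than Dixon's critical value at the 95% level allows. Chance alone does this in about 1 in 20 groups. In control libraries at 16 h, replicate 1 lay at 11.7 CPM for Dusp27 against 10.1 to 10.4 in the others. The same library lay at 317 CPM for Angptl2 (345 to 351 in the others) and at 33.6 CPM for Tinagl1 (44.9 to 46.3). Replicate 4 of that group lay at 11.0 CPM for Cry2 (13.0 to 13.3), at 47.6 CPM for Fam76a (41.8 to 42.5) and at 45.0 CPM for Fgd3 (49.4 to 49.9). In control libraries at 28 h, replicate 1 lay at 416 CPM for Angptl2 (442 to 447) and replicate 4 at 207 CPM for Arrb1 (217 to 220). In CM libraries, replicate 1 at 16 h lay at 0.981 CPM for Lcn2 (2.08 to 2.29). At 28 h replicate 4 lay at 2.10 CPM for Lcn2 (1.40 to 1.42) and replicate 3 at 83.1 CPM for Plat (72.2 to 74.0).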

How the results depend on the processing

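Wherever an alternative run gave a gene an adjusted p (DESeq2 gave none for Lcn2 and Serpina3n), the difference kept its sign, in all 40 genes. Among the clock genes that did not pass, that of Rorb ranged from −0.07 to 0.05 without 1 library. Of the 40 genes, 38 passed in all 7 other settings in which they had a value, the exceptions being Cry2 (limma-voom) and Tns1 (no low-count filter and the replicate block). In all 16 fits without 1 library 25 of the 40 passed, and each fit kept 30 to 38 of them. Those lost most often were Cry2 in 13 fits, Tns1 in 11, and Dusp27 and Syt13 in 7 each.

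Counts of genes moved more. Without a low-count filter 97 genes passed (39 above 0, 58 below 0, 39 of the 40 among them), with 19 reversed, 30 lost, 30 gained, 3 weaker at 28 h, 1 stronger at 28 h, 14 passing at neither time and 61 changing over time the same way in both media. DESeq2 gave 68 (28 above 0, 40 below 0), with 28 lost, 20 gained, 3 weaker, 1 stronger and 51 changing the same way in both media. Thinning gave 23 above 0, 1 stronger and 5 at neither time, and total counts only gave 5 at neither time. The cause of these moves was not tested. At an adjusted p of 0.01, 26 genes passed. With the single effects called at an unadjusted p of 0.05, the classes held 26 reversed, 7 lost, 4 gained, 2 weaker, 1 stronger and 0 at neither time, so the split into reversed, lost and gained depends on that threshold.

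Without 1 library, 19 to 39 genes passed below 0, 9 to 13 were reversed, 13 to 20 lost, 7 to 19 gained, 0 to 2 weaker, 0 to 1 stronger and 0 to 5 at neither time, and the CM effect at 28 h passed in 170 to 334 genes. The highest counts below 0 and gained (39 and 19) came without CM replicate 2 at 28 h, and 13 were gained without CM replicate 4 at 28 h. The effect at 28 h passed in 179 genes without control replicate 1 at 28 h and in 170 without CM replicate 3 at 28 h.

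With the replicate number as a block 49 genes passed, 39 of the 40 among them. The numbers share no stated source. Deviations of libraries of the same number were at most weakly correlated (r from −0.119 to 0.121 over 24 pairs, 2 of them above 0.1). Among libraries of the other groups, 7 of 16 libraries correlated best with their own number, and the count to be met by chance was not computed. At this depth the median SE of the difference was 0.107 over all genes tested, and the smallest difference that passed was 0.22.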
